A study of Mus musculus with 51 samples.

Results

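The genes described here are the mouse Rnf genes, named for the RING finger, and they were chosen by symbol: every gene whose symbol is Rnf followed by a number and at most 1 letter, except Rnf7, with 10 or more counts in at least 2 of the 51 RNA-seq libraries. The symbol matched 81 of the 40077 genes in the tables, and 73 were kept. Of the 8 others, Rnf133 and Rnf148 had 0 counts in every library, Rnf182, Rnf186, Rnf39 and Rnf43 stayed below 10 counts throughout, and Rnf112 and Rnf17 reached 10 counts in only 1 library. The rule used no difference between groups. Symbols of another form, such as Rnft1 and Rnf113a2, were not matched.

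A RING finger is a zinc-binding fold that holds an E2 enzyme charged with ubiquitin next to a substrate, so most RING proteins act as E3 ubiquitin ligases, the enzymes that choose what is tagged. Ubiquitin reaches the E2 enzymes from an E1 enzyme, and UBA1 is the E1 that charges most of them. RNF genes share a naming scheme and not a single function. Among them are regulators of histones and DNA repair, of the endoplasmic reticulum, of ribosomes, of innate immunity and of growth signals, and the RING-between-RING ligases, which carry ubiquitin on a cysteine of their own before passing it on.

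The study lowered, raised or inhibited UBA1 in tumor cells. In mice, 35 subcutaneous tumors were sequenced. B16-BL6, a melanoma line grown in female C57BL/6 mice, gave 3 tumors with a nontargeting guide RNA (sgNC) and 4 with a guide against Uba1 (sgUba1). Myc-CaP, a prostate cancer line from MYC-transgenic mice grown in male FVB mice, gave 3 sgNC and 7 sgUba1 tumors, 3 tumors with empty vector (EV) and 4 with Uba1 overexpression (OE), and 6 tumors of wild-type cells from mice given vehicle and 5 from mice given TAK-243, an inhibitor of UBA1, at 25 mg/kg. Host mice were 6 to 8 weeks old. In culture, Myc-CaP cells gave 16 libraries in 2 experiments of 4 groups, each group with 2 libraries: sgNC and sgUba1 cells with and without IFN-γ, and wild-type cells left untreated or given 50 nM TAK-243, with and without IFN-γ at 1 ng/mL for 18 h. The guide lines were single-cell clones, so a difference between sgUba1 and sgNC is also a difference between clones. Tumors were grown on both flanks and nothing ties a tumor to a mouse, so tumors of a group may share a host, and nothing says that the cell libraries came from separate cultures. Their p-values then measure only the spread between these samples.

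Libraries held 8651963 to 38032284 counts, with tumors between 8651963 and 35693092 and cells between 12860844 and 38032284. Levels within a gene are given in CPM, which correct for library size with TMM factors, and levels between genes in TPM, which are also scaled for gene length. Uba1 RNA checked the labels. It was 208 to 247 CPM in B16-BL6 sgUba1 tumors against 409.5 to 455 in their controls, 631 to 747 in OE tumors against 278 to 310.4 in EV tumors, and 283 and 295 CPM in sgUba1 cells against 526 and 533 in sgNC cells. In the Myc-CaP tumors labelled sgUba1 it was 197 to 211 CPM in tumors 1 to 3 but 361 to 383 CPM in tumors 4 to 7, above the controls at 319.6 to 337 CPM, so the Myc-CaP sgUba1 differences below are also given without tumors 4 to 7. The melanocyte markers summed to between 10500 and 12500 TPM in B16-BL6 tumors and to at most 16.3 TPM in Myc-CaP tumors. The prostate and epithelial markers summed to between 515 and 1310 TPM over the cell libraries.

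The promoters of 4 genes on which the results below turn are printed here. Rnf26 and Rnf10 are 2 of the 4 genes whose response to IFN-γ differed between sgNC and sgUba1 cells, and Rnf19b and Rnf157 are among the genes that moved furthest with TAK-243. Each sequence is 250 bases before and 50 bases from the RefSeq gene start on GRCm38.p6, 5′ to 3′ on the gene's strand. Capitals mark 3 kinds of motif searched on both strands: the letters TTCNNNGAA of the interferon-γ activated site (GAS), the core TTTCNNTTT of the interferon-stimulated response element (ISRE), and the heat shock pair GAANNTTC.

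Rnf26 lies at chr9:44113002-44113301 (minus strand), Rnf10 at chr5:115272846-115273145 (minus strand), Rnf19b at chr4:129057894-129058193 (plus strand) and Rnf157 at chr11:116412983-116413282 (minus strand).
Rnf26: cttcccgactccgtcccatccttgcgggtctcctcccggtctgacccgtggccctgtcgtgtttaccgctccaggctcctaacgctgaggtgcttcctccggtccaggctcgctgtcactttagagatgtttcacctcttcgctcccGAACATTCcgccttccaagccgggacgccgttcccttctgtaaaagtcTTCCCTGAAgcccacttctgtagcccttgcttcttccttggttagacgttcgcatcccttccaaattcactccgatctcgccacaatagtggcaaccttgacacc
Rnf10: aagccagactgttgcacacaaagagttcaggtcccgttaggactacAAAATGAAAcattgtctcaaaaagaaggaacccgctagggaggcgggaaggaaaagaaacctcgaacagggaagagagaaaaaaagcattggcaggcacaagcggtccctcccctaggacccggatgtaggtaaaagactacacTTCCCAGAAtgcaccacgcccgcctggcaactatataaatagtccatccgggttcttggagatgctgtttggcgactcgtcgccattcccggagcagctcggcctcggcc
Rnf19b: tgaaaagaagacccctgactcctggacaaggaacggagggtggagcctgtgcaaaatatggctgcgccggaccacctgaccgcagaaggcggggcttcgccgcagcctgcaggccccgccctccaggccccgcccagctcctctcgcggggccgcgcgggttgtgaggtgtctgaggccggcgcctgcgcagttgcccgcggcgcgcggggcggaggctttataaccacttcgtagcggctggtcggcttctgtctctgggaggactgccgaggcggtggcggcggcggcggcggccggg
Rnf157: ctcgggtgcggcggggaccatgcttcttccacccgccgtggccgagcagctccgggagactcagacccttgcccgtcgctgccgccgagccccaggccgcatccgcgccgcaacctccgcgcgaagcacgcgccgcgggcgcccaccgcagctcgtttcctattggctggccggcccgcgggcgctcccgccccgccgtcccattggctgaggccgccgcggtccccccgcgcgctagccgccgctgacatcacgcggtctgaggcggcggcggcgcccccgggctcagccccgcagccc

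In the Rnf26 promoter a heat shock pair began 103 bases and a GAS match 55 bases before the start. The Rnf10 promoter held an ISRE core at 204 bases and a GAS match at 60 bases before the start. Neither Rnf19b nor Rnf157 held a match to these letters, to the E-box CACGTG, to the cyclic AMP element TGACGTCA or to the C/EBP-ATF element TGATGCAA. RefSeq entries were found for 57 of the 73 genes, with 74 promoters in all, and the others were not analysed, Rnf19a and Rnf11 among them. A GAS match stood in 8 of the 57 genes, or 14%, against 9.55% of all 27018 genes with an entry, and an ISRE core in 7 genes, or 12.3%, against 12.1%. E-boxes were found in 5 genes, 8.77% against 8.09%, and heat shock pairs in 5, 8.77% against 9.04%. The cyclic AMP and C/EBP-ATF elements were in 0 of the 57, against 2.03% and 1.03% of all genes. Member promoters had a median GC content of 60.7%, against 52.7% over all 32841 promoters. A match is a description of letters and not of binding.

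Most Rnf genes were expressed in every library. Of the 73, 52 stood at 1 TPM or more in all 51 libraries, 19 in some of them, and Rnf165 and Rnf212b in none. Their summed level was 1454 to 2104 TPM per library, and the 10 most abundant held between 41.7% and 52.8% of a group's sum.

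**Figure D1:**
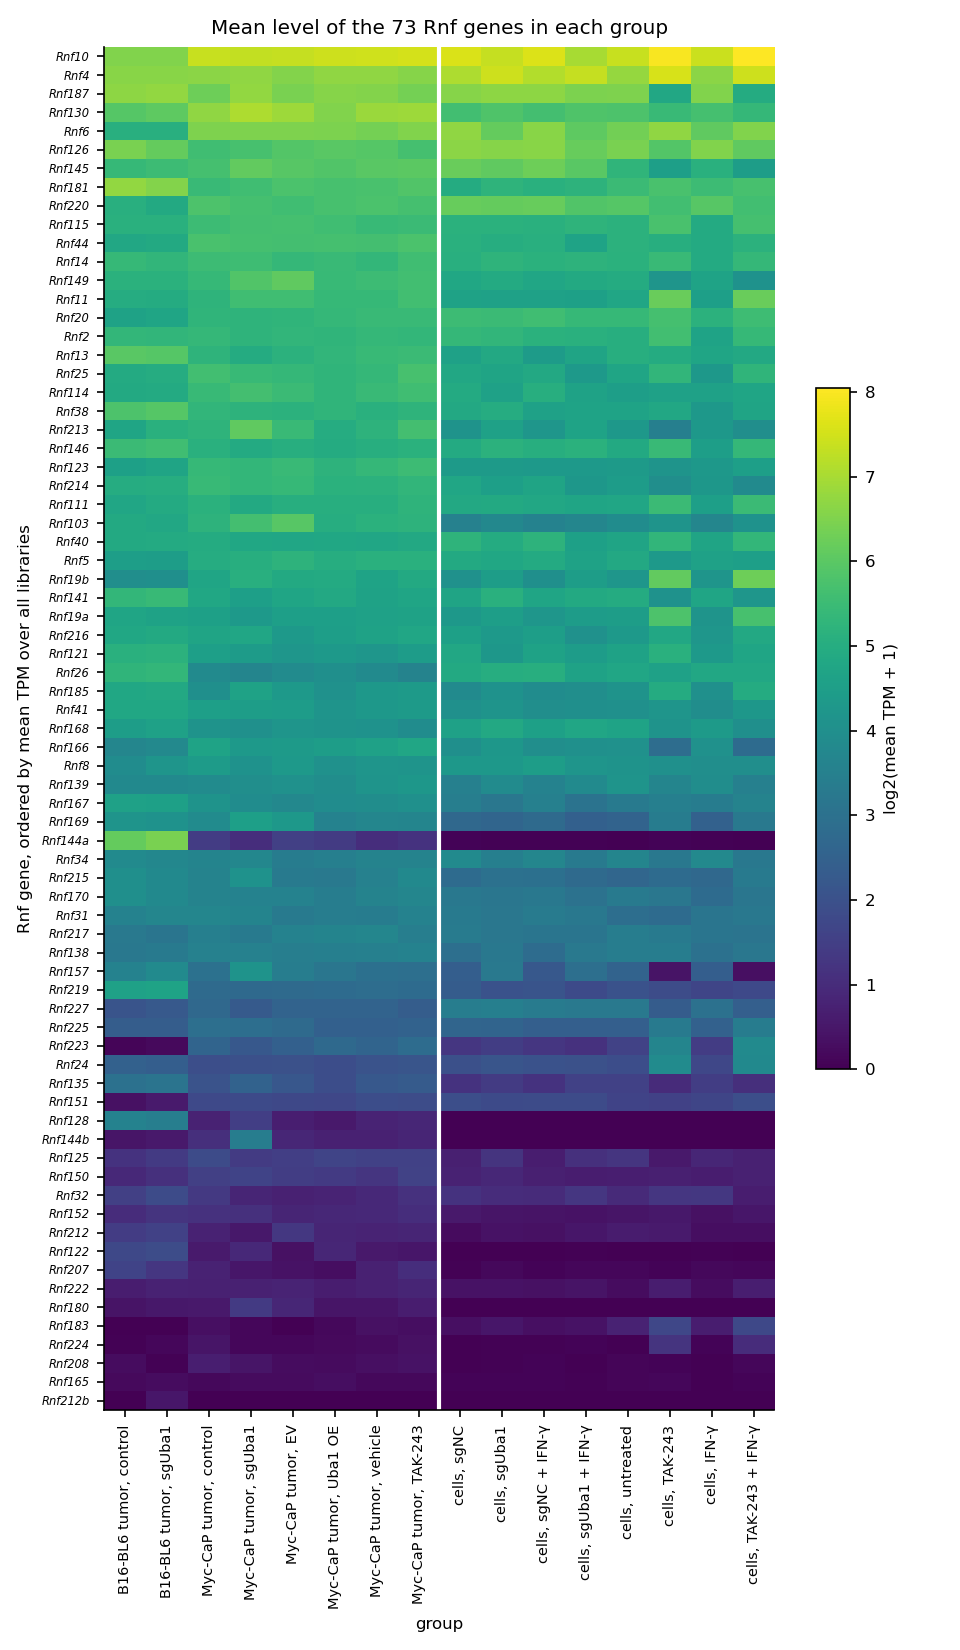
Mean level of each of the 73 Rnf genes (rows, ordered by mean TPM over all libraries) in each of the 16 groups (columns; tumors left of the white line, cultured cells right), as log2(mean TPM + 1). Rnf10 leads the order at a mean of 165.5 TPM, while Rnf144a is bright only in the B16-BL6 columns and Rnf144b only in the Myc-CaP sgUba1 tumors.

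Rnf10, which ubiquitylates ribosomal proteins of stalled ribosomes, had the highest mean level at 165.5 TPM, with libraries from 85.4 to 268 TPM. Rnf4, which ubiquitylates proteins carrying SUMO chains, followed at 115 TPM (84 to 195), then Rnf187, a coactivator of c-Jun, at 89.3 TPM (24.9 to 120.3), and Rnf130, a membrane RING protein of the Goliath type, at 87.2 TPM (39.5 to 147). Neighbours in this order overlapped widely. Rnf6, a ligase of the androgen receptor, was at 79.1 TPM and ranged from 30.3 to 111 TPM. The rest of the first 10 were Rnf126 (66.8 TPM), a partner of the chaperone BAG6, Rnf145 (55.5 TPM) of the sterol pathway in the endoplasmic reticulum, Rnf181 (54.3 TPM), Rnf220 (51.5 TPM) and Rnf115 (41.9 TPM). A mean of 10 TPM or more was reached by 46 genes. At the other end, Rnf128, a ligase known from T cell anergy, had 0 counts in all 16 cell libraries, and Rnf144a, Rnf144b and Rnf122 were close to 0 there.

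In tumors, few Rnf genes moved past the threshold, an adjusted p under 0.05 by edgeR's quasi-likelihood test over all genes. In B16-BL6 sgUba1 tumors 0 of 67 tested were called, while 0.268% of all genes tested were called higher and 0.456% lower. At an unadjusted p under 0.05 there were 10 of the 67, against 2861 of 17539 over all genes. DESeq2 and limma-voom also called 0 of the Rnf genes. The smallest adjusted p belonged to Rnf8, which starts the ubiquitin signal at DNA breaks, with 37 ± 0.093 CPM (SD, n = 3) in controls and 43.2 ± 2.36 CPM (n = 4) in sgUba1 tumors, a log2 difference of 0.22 ± 0.067 (SE, adjusted p = 0.173). The 67 genes had a median log2 difference of -0.0085, against 0.012 over all genes. The T and NK cell markers summed to 7.27 to 9.71 TPM in controls and 10.4 to 13.5 TPM in sgUba1 tumors, and the myeloid markers to 151 to 264 and 262 to 337 TPM. Their part in these values was not tested.

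Rnf212b, a relative of the meiotic SUMO ligase Rnf212, had counts in 1 group only. It had 5, 10, 11 and 6 counts in the 4 B16-BL6 sgUba1 tumors and 0 in the other 47 libraries. It met the rule of 10 counts in 2 libraries through that group alone, so its level there is a description of how it was chosen. It was too low to pass the filter on low counts. Its exons overlap those of Homez on the opposite strand.

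In Myc-CaP tumors labelled sgUba1, 1 of 66 genes tested was called higher and 0 lower, where 1.15% of all genes were higher and 1.89% lower. The gene was Rnf144b (GRCm38 chr13:47122656-47247991, plus strand), a RING-between-RING ligase known as a p53 target. It had 3.43, 3.22 and 1.93 CPM in the 3 controls. In sgUba1 tumors 1 to 3 it had 12.9, 12.5 and 5.2 CPM, and in tumors 4 to 7 it had 36.1, 22.7, 49 and 42.5 CPM. The groups did not overlap, and tumors 4 to 7 were the highest of all 35 tumors. The log2 difference was 3.17 ± 0.713 (SE, adjusted p = 0.043). Without tumors 4 to 7 it was 1.83 with an adjusted p of 0.123, in a fit where 0.00638% of all genes were called. The call was kept without sgUba1 tumor 2 or 3, with 3 and 2 genes called then, and lost, with 0 called, without any other single tumor of the 10; over these the adjusted p ran from 0.0243 to 0.169. It had 0.397 to 3.4 CPM in the tumors of the other Myc-CaP experiments and in B16-BL6 tumors.

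**Figure D2:**
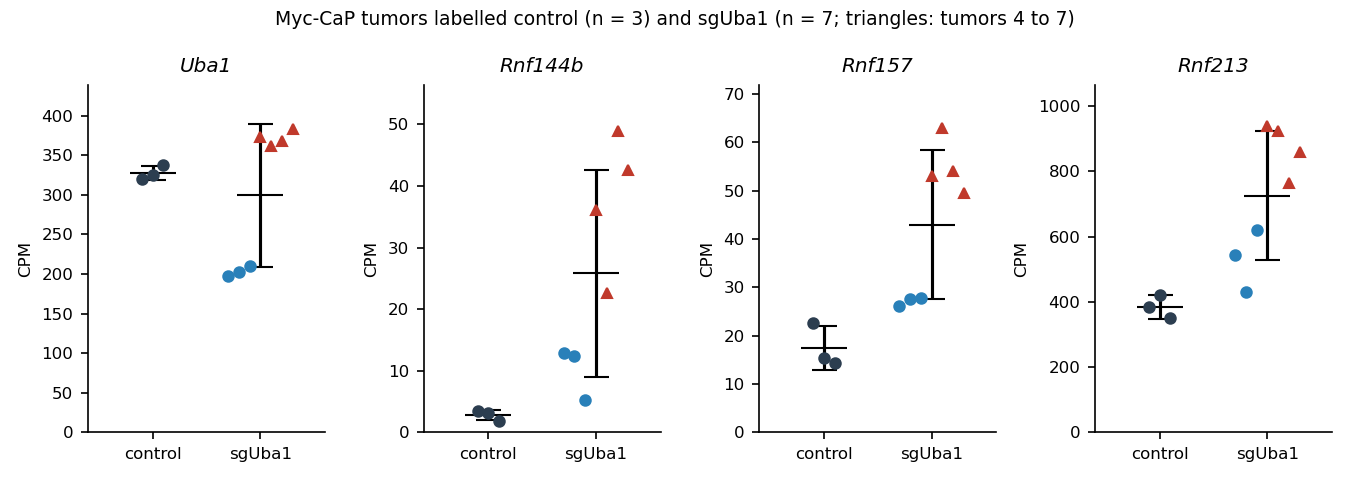
Levels (CPM, linear axes from 0) of Uba1, Rnf144b, Rnf157 and Rnf213 in each Myc-CaP tumor labelled control (n = 3) or sgUba1 (n = 7); bars are mean ± SD and triangles mark tumors 4 to 7. All 7 sgUba1 tumors lie above the controls for the 3 Rnf genes, with the triangles highest, while for Uba1 the triangles lie above the controls and tumors 1 to 3 below.

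Rnf157, a RING protein best known from neurons, showed a like order without passing the test. Its controls were at 22.6, 15.3 and 14.4 CPM, sgUba1 tumors 1 to 3 at 26.2, 27.5 and 27.8 CPM, and tumors 4 to 7 at 53.1, 62.9, 54 and 49.5 CPM, a log2 difference of 1.30 ± 0.33 (adjusted p = 0.0603). Rnf213, a very large ATPase and ligase that interferons induce, had 383, 422 and 350.2 CPM in controls. It had 543, 431 and 620.3 CPM in sgUba1 tumors 1 to 3 and 940.1, 925, 764 and 859.6 CPM in tumors 4 to 7, for a log2 difference of 0.92 ± 0.24 (adjusted p = 0.0635). Without tumors 4 to 7 the differences were 0.64 ± 0.189 for Rnf157 (adjusted p = 0.166) and 0.46 ± 0.154 for Rnf213 (adjusted p = 0.19). Rnf187 differed by 0.50 ± 0.142 (adjusted p = 0.0764), or by 0.24 ± 0.0899 without those tumors (adjusted p = 0.225). DESeq2 called these 3 genes as well.

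Markers of other cells moved with these tumors. The 15 myeloid markers, all detected, summed to 363 to 668 TPM in Myc-CaP sgNC tumors and 625 to 1090 TPM in sgUba1 tumors, and the T and NK cell list to 10.6 to 14.8 and 14.8 to 33 TPM. The 20 genes of the IFN-γ response list summed to 145 to 207 and 139 to 571 TPM. Their part in the Rnf values was not tested. Of the 9 Rnf genes of innate immunity, all tested here, 0 were called, with a median log2 difference of 0.27. Without tumors 4 to 7, 0 of 8 tested were called and the median was -0.068. In that fit 0.00638% of all genes were called, and the median over all genes was 0.0058. In whole tumors, fewer cells of a type and less RNA per cell cannot be told apart.

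Rnf6 split the Myc-CaP sgUba1 tumors the other way. Controls had 124, 135 and 134 CPM. Tumors 1 to 3, in which Uba1 RNA was low, had 93, 106 and 84.7 CPM, below every control, and tumors 4 to 7 had 178, 180.0, 168 and 163 CPM, above every control. Without tumors 4 to 7 the log2 difference was -0.48 ± 0.11 (SE, adjusted p = 0.124) and did not pass. This gene was chosen for this description after its values were seen.

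With Uba1 overexpression 0 of 64 genes tested were called, against 0.0202% of all genes higher and 0.00673% lower. There were 7 of the 64 at an unadjusted p under 0.05, against 2698 of 14853 over all genes. Limma-voom called 0 of the Rnf genes and DESeq2 called 1, which was Rnf213. Rnf213 had 441, 448 and 457 CPM in EV tumors and 281, 299, 393 and 351 CPM in OE tumors. Every OE tumor lay below every EV tumor, and the log2 difference of -0.44 ± 0.119 did not pass (adjusted p = 0.147). The IFN-γ response list summed to 162 to 262 TPM in EV and 117 to 161 TPM in OE tumors, and the T and NK cell list to 19.2 to 24.8 and 6.51 to 10.3 TPM. Their part in this value was not tested.

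With TAK-243 in mice 0 of 69 genes tested were called, against 0.0867% of all genes higher and 0.0578% lower. There were 8 of the 69 at an unadjusted p under 0.05, against 2587 of 17299 over all genes. Limma-voom called 0 of the Rnf genes and DESeq2 called 2, Rnf213 and Rnf150. Rnf213 ranged from 340.5 to 419 CPM in the 6 vehicle tumors, with a median of 390.5, and from 442 to 561 CPM in the 5 TAK-243 tumors, with a median of 494. The groups did not overlap, and the log2 difference was 0.37 ± 0.0781 (adjusted p = 0.0841). Myeloid markers summed to 275 to 426 TPM with vehicle and 393 to 763 TPM with TAK-243, the T and NK cell list to 9.03 to 13.6 and 8.49 to 15.7 TPM, and the IFN-γ response list to medians of 167 and 199 TPM. Their part in this value was not tested.

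In cultured cells, TAK-243 moved most Rnf genes. Of 63 tested, 27 rose and 18 fell, where 32.3% of all genes tested rose and 34% fell, so the share of Rnf genes called was close to that of all genes. With IFN-γ present, 27 rose and 19 fell, against 32% and 36.2% of all genes. Both comparisons together had 26 genes higher in each, 16 lower in each, 0 in opposite directions and 7 called in 1 of them. They share no libraries, but they belong to the same experiment and were fitted together. The counts over both comparisons were not made for all genes. The median log2 difference was 0.10 without and 0.08 with IFN-γ, against 0.027 and 0.023 over all genes. The 15 myeloid markers summed to 14.4 to 18.5 TPM in these cells without TAK-243 and 21.2 to 26.6 TPM with it. Of the 4 tested, Cd68 and Csf1r rose with TAK-243, and Cd68 with IFN-γ present, while Adgre1, Tyrobp, C1qb, C1qc and S100a9 were at 0 in every one of these groups. Their part in the Rnf values was not tested.

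The largest increases were in genes with little RNA before treatment. Rnf223 had 3.64 and 3.87 CPM untreated and 21.2 and 23.1 CPM with TAK-243, a log2 difference of 2.55 ± 0.134 (adjusted p = 1.75e-16). With IFN-γ it went from 4.01 and 3.38 to 25.7 and 27.6 CPM (2.85 ± 0.132). All 4 treated libraries stood far above all 4 others. Rnf24, a membrane protein of the Golgi, had 12.3 and 9.8 CPM untreated and 55 and 57 CPM treated (2.34 ± 0.0993, adjusted p = 1.02e-18). Its exons overlap those of Pank2 on the opposite strand, and Pank2 fell by 1.55. Rnf224 had 0 counts in both untreated libraries and 15 and 28 with TAK-243, at least 7.71-fold higher than 3 counts per library would be. With IFN-γ it had 36 counts in 2 treated libraries against 3 in 2 others, a ratio of 11.9 with a 95% counting interval of 3.75 to 60.3. Rnf183, a ligase known to be induced in endoplasmic reticulum stress, rose from 0.511 and 0.562 to 1.90 and 1.93 CPM (1.82 ± 0.436, adjusted p = 5.31e-04).

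Both dorfin-type ligases rose together. Rnf19b (GRCm38 chr4:129058271-129085886, plus strand), known from natural killer cells and macrophages, had 25.1 and 21.9 CPM untreated and 91.2 and 93.4 CPM treated, a log2 difference of 1.97 ± 0.0706 (adjusted p = 1.61e-20). With IFN-γ it went from 24.4 and 27.9 to 102 and 107 CPM. Rnf19a, dorfin itself, had 61.8 and 58.2 CPM untreated and 158 and 156 CPM treated (1.39 ± 0.046, adjusted p = 2.64e-21). Of the 6 RING-between-RING genes tested, 4 rose, Rnf216 and Rnf14 being the others, and 0 fell, against 32.3% and 34% of all genes. With IFN-γ the same 4 rose and Rnf217 fell, against 32% and 36.2% of all genes. Rnf11, a small RING adaptor of the A20 complex and of SMURF ligases, went from 39.9 and 39.8 to 108 and 109 CPM (1.44 ± 0.0557).

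**Figure D3:**
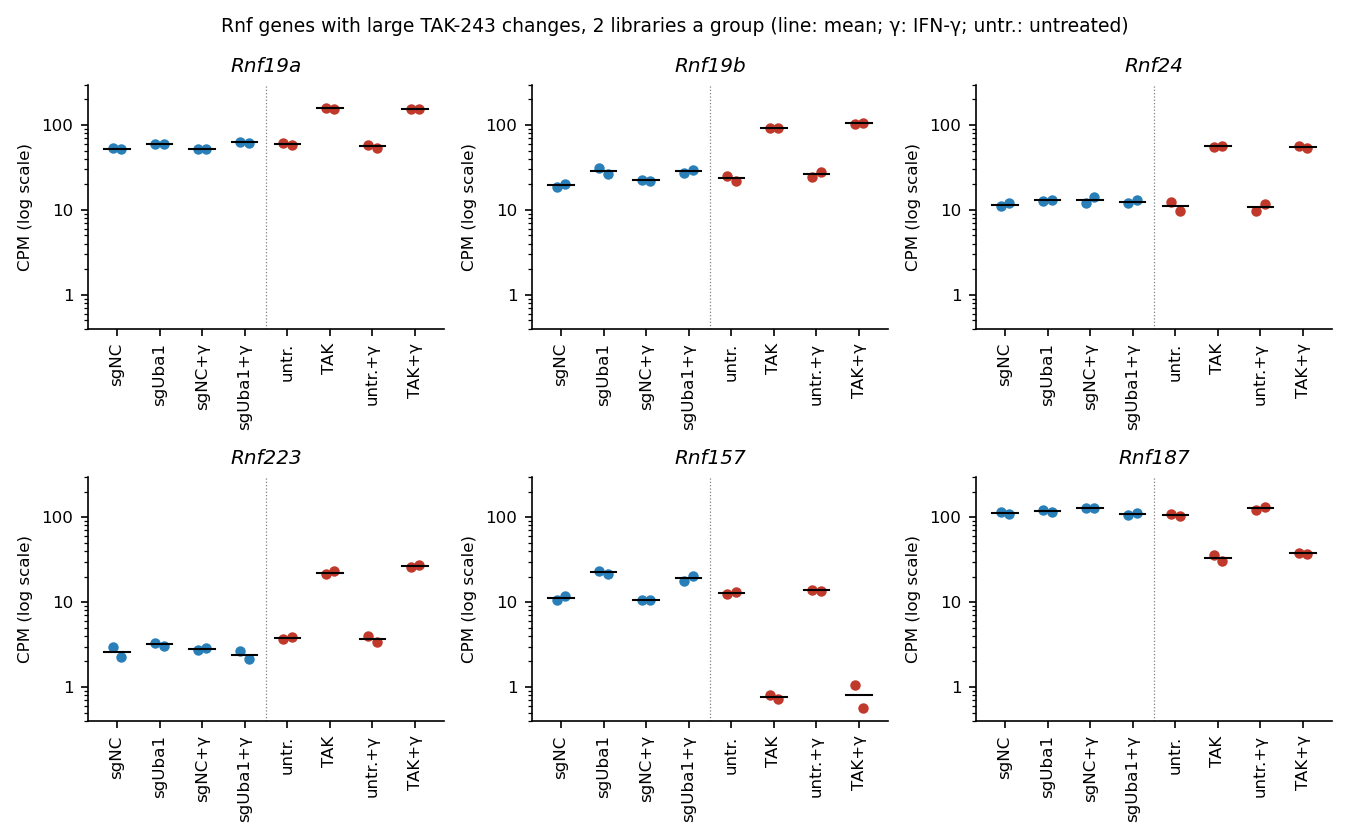
Levels (CPM, log axis) of 6 Rnf genes in each cell library, 2 libraries a group, with the group mean as a line; sgRNA experiment in blue, TAK-243 experiment in red, γ marks IFN-γ. Rnf19a, Rnf19b, Rnf24 and Rnf223 stand high in the TAK-243 groups, Rnf157 and Rnf187 stand low there, and Rnf157 stands higher in sgUba1 than in sgNC cells.

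The largest decrease was that of Rnf157. It had 12.5 and 13.2 CPM untreated and 0.798 and 0.722 CPM with TAK-243, a log2 difference of -4.06 ± 0.228 (adjusted p = 8.92e-16), and with IFN-γ it went from 14 and 13.6 to 1.05 and 0.564 CPM (-4.11 ± 0.222). No other Rnf gene called had a decrease as large in either comparison. Rnf187 fell from 108 and 104 to 35.8 and 30.6 CPM (-1.66 ± 0.063, adjusted p = 6.67e-20), and from the third place in the family's mean order to 27.3 TPM in treated cells. Rnf166, a ligase of the antiviral response, fell from 16 and 18.2 to 7.55 and 6.26 CPM (-1.29 ± 0.131). Rnf227 fell by 1.19 on the log2 scale, Rnf141 by 0.97 and Rnf149 by 0.85. Ampd3, whose exons overlap Rnf141 on the opposite strand, fell by 1.75. In sgUba1 against sgNC cells Ampd3 fell by 0.34 while Rnf141 rose.

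Genes were also read by role, beginning with chromatin and DNA repair. Of 8 tested, 6 were higher with TAK-243, both with and without IFN-γ, where 32% and 32.3% of all genes were. The role lists are short and were chosen with earlier results known. They were Rnf20 and Rnf40, which together ubiquitylate histone H2B (0.33 and 0.67 log2), Rnf2, the catalytic subunit of Polycomb complex PRC1 (0.54), Rnf4 (0.67), Rnf111 (0.74), which like Rnf4 reads SUMO chains, and Rnf169 (0.94), which binds ubiquitylated chromatin at DNA breaks. Rnf168, which writes the mark that Rnf169 reads, fell (-0.53). The list's median was 0.61, against 0.027 over all genes.

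Of 5 genes of ribosome and protein quality control 4 rose and 1 fell, against the 32.3% and 34% of all genes. Rnf10 rose from 331 and 337 to 499 and 531 CPM (0.63 ± 0.0322), and Rnf25 (0.87) and Rnf14 (0.18), which act together on stalled ribosomes, rose as well, as did Rnf115 (0.60). Rnf126, the fifth, fell (-0.51), although it is the closest relative of Rnf115. Among 7 signaling regulators 5 rose, with Rnf11 and Rnf111 first, and Rnf187 and Rnf220 fell. Of 10 genes of the endoplasmic reticulum, Golgi and lysosome membranes, 4 rose (Rnf183, Rnf185, Rnf121 and Rnf103) and 3 fell (Rnf145, Rnf5 and Rnf139), again beside 32.3% and 34% of all genes.

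The innate immune genes went down or did not pass. Of 7 tested 0 rose and 4 fell, where 32.3% of all genes rose and 34% fell: Rnf166, Rnf135, Rnf125 and Rnf213. Rnf135 and Rnf125 act on the RNA sensor RIG-I, the first as an activator and the second as an inhibitor. Rnf213 fell from 201 and 198 to 114 and 108 CPM (-0.85 ± 0.0385, adjusted p = 5.02e-18), and Rnf135 from a mean of 2.33 to 1.25 CPM (-0.90, adjusted p = 0.0207). Rnf125 was near 1 CPM (-1.41, adjusted p = 0.0328). Both calls rest on few counts. That of Rnf135 was lost with DESeq2 and without any 1 of the 4 libraries (adjusted p 0.0522 to 0.0669), and that of Rnf125 with DESeq2, without the first untreated library (-0.97) and without the second treated one (-0.89), while it was -2.78 without the first treated one. Rnf31 (-0.05), Rnf34 (-0.13) and Rnf114 (0.10) did not pass, and Rnf122 and Rnf128 were too low to test. With IFN-γ 3 fell, and Rnf125 did not pass there. The list's median was -0.85 without IFN-γ and -0.45 with it, against 0.027 and 0.023 over all genes. Of 5 protease-associated RING genes tested, 0 rose and Rnf130 and Rnf149 fell.

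Other RING and U-box ligases and the partners of RNF proteins were counted beside them. Of 59 other ligases tested with TAK-243, 26 rose and 22 fell, and with IFN-γ 22 rose and 27 fell. Of 45 E2 enzymes, complex partners and substrates, 28 rose and 10 fell, and with IFN-γ 27 and 12. Over all genes 32.3% rose and 34% fell, and with IFN-γ 32% and 36.2%. Of the 26 Rnf genes higher in both comparisons, 23 had a promoter entry, with an ISRE core in 5, a GAS match in 4 and a heat shock pair in 2. Of the 16 lower in both, 14 had one, with 0, 1 and 2. Over all genes with an entry the shares were 12.1%, 9.55% and 9.04%.

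The sgUba1 clone moved fewer genes and by less. Of 63 tested against sgNC, 18 rose and 12 fell, where 16.2% of all genes rose and 13.6% fell. With IFN-γ, 15 rose and 18 fell, against 17% and 22.4% of all genes. Between them, 13 genes were higher in both, 9 lower in both and 19 called in 1, counts that were not made for all genes. The first count rests on the sgUba1 libraries: it was 17 without the first and 16 without the second, against 30 in full, and 15 when only these 4 libraries entered the fit.

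Rnf157 rose from 10.5 and 11.7 CPM in sgNC to 23.5 and 21.3 CPM in sgUba1 cells, a log2 difference of 1.01 ± 0.0953 (adjusted p = 2.63e-05). With IFN-γ it was at 10.5 and 10.6 against 17.8 and 20.5 CPM (0.86 ± 0.0951). The groups did not overlap. Rnf125 had a like log2 difference (1.06 ± 0.338, adjusted p = 0.0351) at 0.442 and 0.523 against 0.846 and 1.19 CPM. Rnf19b rose from 18.8 and 20.3 to 30.7 and 26.2 CPM (0.54 ± 0.0855), Rnf4 from 197 and 208 to 268 and 278 CPM (0.43 ± 0.0482), and Rnf213 from 182 and 183 to 243.8 and 244 CPM (0.42 ± 0.0459). Rnf141 (0.48), Rnf139 (0.39) and Rnf138 (0.35) rose too.

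Rnf6 was lower in sgUba1 than in sgNC cells. It had 151 and 156 CPM in sgNC and 115 and 109.5 CPM in sgUba1 cells (-0.45 ± 0.0475, adjusted p = 5.59e-05), and 159.7 and 159.9 against 116 and 113 CPM with IFN-γ (-0.48 ± 0.0473). Rnf34, a regulator of cell death signals, fell from 30 and 32.9 to 22.8 and 23 CPM (-0.46 ± 0.0706). Rnf114 (-0.33), Rnf216 (-0.31), Rnf167 (-0.31), Rnf40 (-0.33) and Rnf10 (-0.28) fell both with and without IFN-γ. With IFN-γ, Spata2, whose exons overlap Rnf114 on the opposite strand, fell too (-0.46, adjusted p = 2.27e-04), as did Slc25a11 beside Rnf167 (-0.41, adjusted p = 4.91e-04), and reads of such pairs cannot be told apart where counting ignores strand. Of the 60 other ligases tested, 17 rose and 5 fell without IFN-γ and 14 rose and 16 fell with it. Of the 45 partners, 9 rose and 9 fell, then 11 and 13. By role, 2 rose and 1 fell of 8 chromatin genes, then 2 and 3. Of 5 quality control genes 1 rose and 1 fell, then 0 and 3. Of 7 innate immune genes it was 2 and 2, then 3 and 2. Of 7 signaling regulators it was 1 and 1, then 0 and 3. Of 10 membrane genes it was 3 and 2, then 1 and 3. Of 6 RING-between-RING genes it was 3 and 2, then 2 and 1. Of 5 protease-associated genes it was 2 and 1, then 3 and 1. Over all genes 16.2% rose and 13.6% fell, then 17% and 22.4%.

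**Figure D4:**
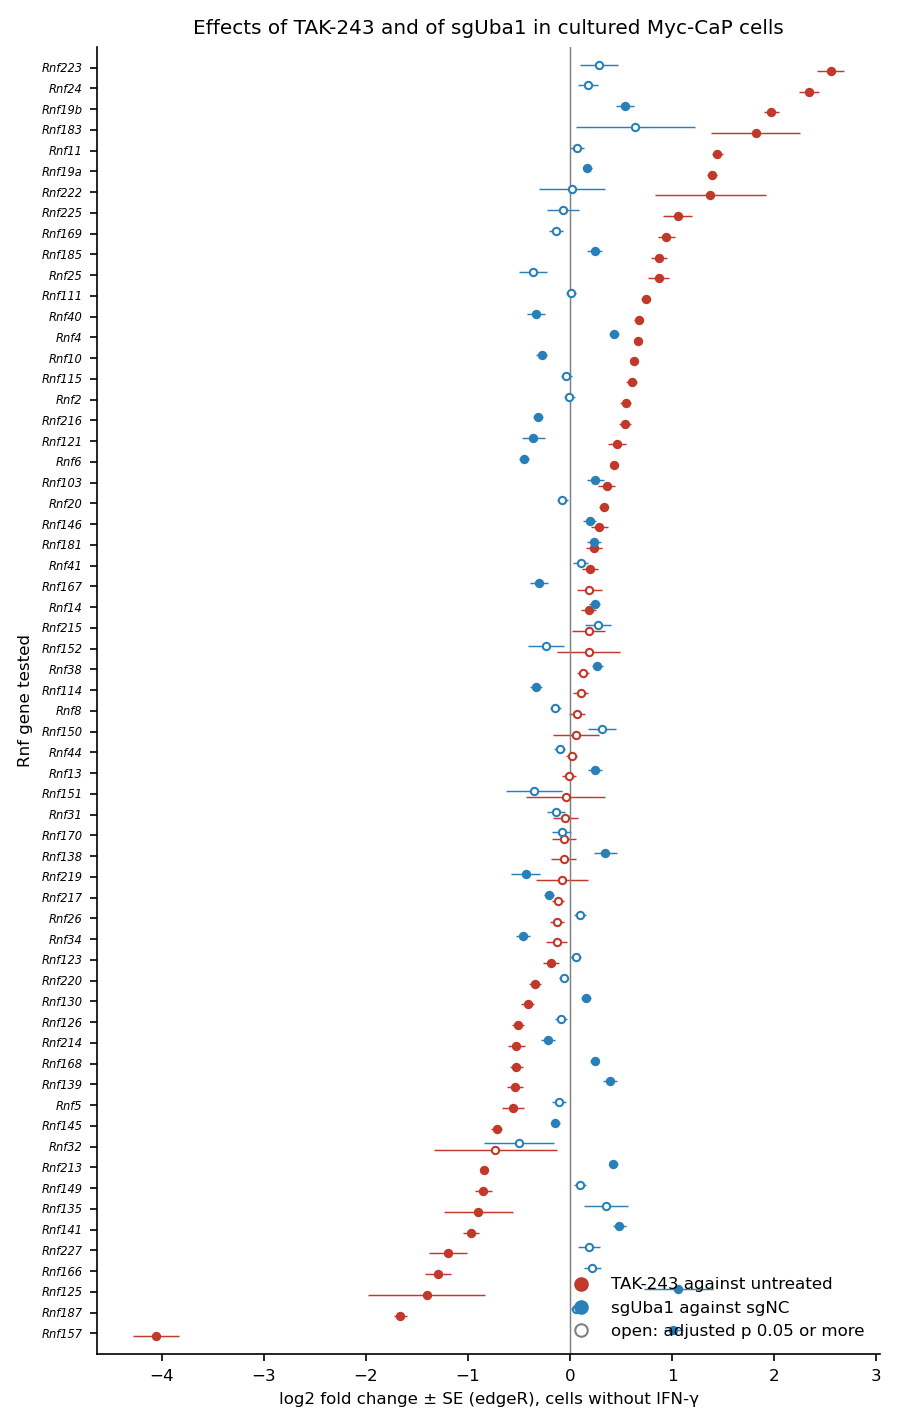
Log2 fold change ± SE (edgeR) of each Rnf gene tested in the TAK-243 experiment, for TAK-243 against untreated cells (red) and sgUba1 against sgNC cells (blue), both without IFN-γ; filled points have an adjusted p under 0.05. Rnf224, at 0 counts in untreated cells, is left out. Rnf157 is the lowest red point at -4.06 and among the highest blue points at 1.01, and the red points spread more widely than the blue ones.

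Setting sgUba1 beside TAK-243, which share no libraries, many genes called in both went in different directions, among Rnf genes and among all genes. Without IFN-γ, 62 genes were tested in both experiments, 30 and 44 were called, and 22 were called in both, which is 73.3% of the first set and 50% of the second, against 79.6% and 38.3% over all genes. Of these 22, 8 rose in both, 2 fell in both, 7 rose with sgUba1 and fell with TAK-243, and 5 did the reverse, so 54.5% were opposite. Over all genes called in both, 1856 of 3593 were opposite, or 51.7%, so the share of Rnf genes was close to that of all genes. With IFN-γ, 24 were called in both, 72.7% and 53.3% of the sets against 79.5% and 49.3% over all genes, with 14 opposite, or 58.3%, against 44.4% of all genes. Without IFN-γ, Rnf157, Rnf213, Rnf125, Rnf141, Rnf139, Rnf168 and Rnf130 were higher with sgUba1 and lower with TAK-243. Rnf10, Rnf40, Rnf216, Rnf121 and Rnf6 were lower with sgUba1 and higher with TAK-243. Rnf19b, Rnf19a, Rnf4, Rnf185, Rnf103, Rnf14, Rnf146 and Rnf181 rose in both, and Rnf145 and Rnf214 fell in both. Bace1 and Pcsk7, which overlap Rnf214 on the opposite strand, fell by 0.66 and 0.58 with TAK-243. With sgUba1 they rose by 0.84 and 0.28, while Rnf214 fell. Line history differs between the experiments too, since one compares clones and the other a drug in wild-type cells.

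IFN-γ on its own moved fewer Rnf genes. In wild-type cells 11 of 63 rose and 3 fell, against 19.6% and 9.39% of all genes. In sgNC cells 2 rose and 0 fell, against 3.03% and 0.856%. The 20 genes of the IFN-γ response list summed to 55.2 and 56.9 TPM in wild-type cells before and 207 and 212 TPM after IFN-γ, and to 40.7 and 46.8 before and 73 and 75.1 TPM after in sgNC cells. Rnf31, the catalytic subunit of the linear ubiquitin ligase LUBAC, rose from 14.4 and 14.9 to 21.1 and 20.3 CPM in wild-type cells (0.50 ± 0.113, adjusted p = 0.00108). Its exons overlap those of Irf9 on the same strand, and Irf9, a factor of the interferon response, rose by 1.09 (adjusted p = 1.28e-06), so reads of the shared stretch cannot be told apart. Rnf126 rose by 0.33, Rnf26 by 0.30, Rnf114 by 0.30, Rnf220 by 0.30, Rnf187 and Rnf10 by 0.27 and Rnf213 by 0.23. Spata2, which overlaps Rnf114, rose by 0.27 (adjusted p = 0.0228). Rnf20 (-0.22), Rnf2 (-0.16) and Rnf6 (-0.12) fell.

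Rnf26 was the 1 gene called in both. It rose from 44.8 and 46.3 to 56.1 and 56.2 CPM in wild-type cells (adjusted p = 0.00109) and from 47.5 and 51.9 to 57.9 and 60.4 CPM in sgNC cells (0.25 ± 0.0588, adjusted p = 0.0449). Rnf14 rose by 0.23 in sgNC cells (adjusted p = 0.0446). The sgNC count rests on single libraries: it was 11 and 7 without the first and second unstimulated sgNC library, and 0 without either stimulated one. Of the 11 genes that rose in wild-type cells, all with a promoter entry, 3 held a GAS match (Rnf10, Rnf220 and Rnf26) and 2 an ISRE core (Rnf10 and Rnf181). Over all genes with an entry the shares were 9.55% and 12.1%.

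In sgUba1 cells the response of 4 genes to IFN-γ was lower than in sgNC cells by the interaction term, and 0 were higher, against 3.97% and 0.663% of all genes. Rnf26, a membrane protein that holds endosomes near the nucleus, was at 54.4 and 51.8 CPM in sgUba1 cells and 44.9 and 42.9 CPM with IFN-γ, while it rose in sgNC cells. The difference of the log2 effects was -0.52 ± 0.0829 (adjusted p = 0.0159). Rnf10 went from 325 and 309 to 266 and 281 CPM in sgUba1 cells and from 371 and 397 to 415 and 418 CPM in sgNC cells (-0.33 ± 0.0749, adjusted p = 0.0369). Rnf126 (-0.35 ± 0.0845, adjusted p = 0.0432) went from 88.4 and 93.2 to 73.3 and 75.7 CPM in sgUba1 cells. Rnf220 (-0.25 ± 0.0619, adjusted p = 0.0472) went from 75.7 and 74.8 to 67.7 and 66.7 CPM. In each of these 4 genes both stimulated sgUba1 libraries lay below the unstimulated ones. The genes were picked by a term fitted on these same libraries, so this order describes the choice. IFN-γ within sgUba1 cells was not tested, and the order was not counted over all genes. The calls rest on few libraries: the count was 9 without the second unstimulated sgNC library and 0 without any 1 of the sgUba1, stimulated sgNC or stimulated sgUba1 libraries.

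**Figure D5:**
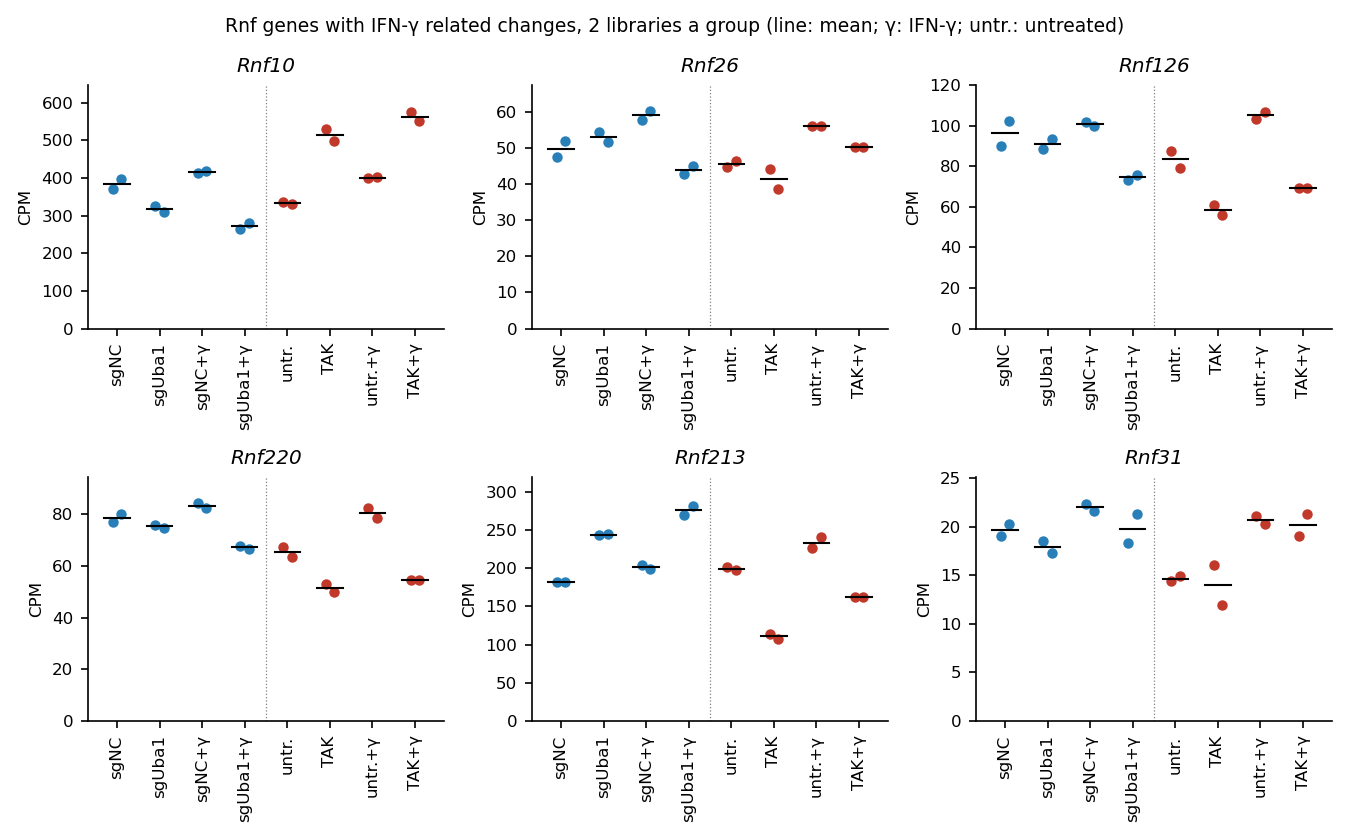
Levels (CPM, linear axes from 0) of 6 Rnf genes in each cell library, 2 libraries a group, with the group mean as a line; sgRNA experiment in blue, TAK-243 experiment in red, γ marks IFN-γ. Rnf10, Rnf26, Rnf126 and Rnf220 stand lower in sgUba1 cells with IFN-γ than without, and Rnf213 stands lower with TAK-243 and higher in sgUba1 cells.

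With TAK-243 the response to IFN-γ differed for 1 gene, which was higher, and 0 were lower, against 0.371% and 2.01% of all genes. The gene was Rnf213 (0.32 ± 0.0528, adjusted p = 3.66e-04). It had 201 and 198 CPM untreated and 227 and 240.4 CPM with IFN-γ, and with TAK-243 it had 114 and 108 CPM without and 162 CPM in both libraries with IFN-γ. Its level with TAK-243 and IFN-γ stayed below that of untreated cells. Its exons overlap A930037H05Rik on the opposite strand.

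The tumor models themselves differed widely. Between the sgNC tumors of B16-BL6 and Myc-CaP, 25 of 69 genes were higher and 23 lower in B16-BL6, against 30.2% and 29.7% of all genes. Line, host strain, host sex and sequencing depth differ together here and cannot be told apart. Markers of host cells differed as well: of 15 myeloid markers 7 were lower and 1 higher in B16-BL6 (median -1.21), of 10 endothelial markers 6 were lower and 1 higher, and of 6 T and NK cell markers tested 3 were lower. Their part in the Rnf values was not tested. Rnf144a, a RING-between-RING ligase of the DNA damage response, had 142 ± 8.59 CPM in B16-BL6 and 3.22 ± 0.931 CPM in Myc-CaP tumors (SD, n = 3 each), a log2 difference of 5.47 ± 0.21 (adjusted p = 2.15e-06). Rnf128 (19.4 against 1.15 CPM), Rnf219 (36.7 against 6.09 CPM), a regulator of the CCR4-NOT deadenylase, and Rnf26 (66.1 against 22.4 CPM) were higher too. Rnf223 had 0.15 CPM in B16-BL6 and 8.92 CPM in Myc-CaP tumors (-5.80 ± 0.438). Rnf6 had 53.8 against 129.9 CPM (-1.27 ± 0.0847), Rnf10 188 against 319 CPM (-0.76 ± 0.0839), and Rnf144b 0.896 against 2.83 CPM (-1.64 ± 0.294). So of the close relatives Rnf144a and Rnf144b, the first was higher and the second lower in B16-BL6.

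Over all comparisons Rnf10 was called most often, in 7 of 13, followed by Rnf126, Rnf213, Rnf220, Rnf26 and Rnf6 in 6 each. Rnf19a was higher in each of the 5 comparisons in which it was called, and Rnf214 lower in each of its 5. Many of these comparisons share control libraries, and the interaction terms reuse libraries of other comparisons, so they are not independent counts. How often other genes were called was not counted, so this order is not a result about Rnf genes.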

How the data were processed

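Bulk RNA-seq of 35 mouse tumors and 16 cultures was analysed, with samples grouped by their labels. The values deposited by the authors were expected counts, not whole numbers, and were rounded here because the design had assumed counts of reads. TPM from the authors, scaled for gene length, were used for levels between genes and marker sums. The submitters' processing notes name kallisto and mm10; a version is not given in the sources used here. The labels describe poly-A selection and the methods removal of ribosomal RNA. Columns of other samples numbered 0. Strand of counting is not given in the sources used here.

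Each tumor experiment was fitted alone and the 8 libraries of each cell experiment together, over all genes, in edgeR 4.0.16 (R 4.3.3) with filterByExpr, TMM factors and the quasi-likelihood test. P-values were adjusted by Benjamini-Hochberg over all genes tested, at a threshold of 0.05. Fits were tested on simulated data. Alternatives were DESeq2 1.42.0, limma-voom (limma 3.58.1), RLE factors, no low-count filter, a replicate block, only the groups compared, each library left out, and Myc-CaP sgUba1 tumors 4 to 7 left out. Depth was 8651963 to 38032284 counts, and floors of 3 counts and counting intervals cover counting error only. Gene positions came from GENCODE M21 (GRCm38), in which all 73 genes were found, 70 with the same version. Exons of 8 overlapped a gene on the same strand and of 25 a gene on the opposite strand. Over the comparisons, 54 pairs of a called Rnf gene and an overlapping gene were tested, and 15 were called the same way.

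Named in each comparison were up to 10 called genes with the largest increase and up to 10 with the largest decrease, the 10 genes highest in TPM, genes called in both TAK-243 or both IFN-γ comparisons, the innate immune list and 6 pairs of relatives. Other genes named for their order in a comparison, Rnf212b and Rnf6 in tumors among them, were chosen after their values were seen. The genes, role lists and tests were chosen with earlier results of these data known.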

Additional observations from a re-analysis of the deposited data

Results flagged for a closer look

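In 105 combinations of gene and group, over 21 genes, 3 libraries lay apart from the rest of their group by Dixon's test, where chance gives about 1 in 20. Rnf122 was at 1.13 CPM in vehicle tumor 5 against 0.278 to 0.515 CPM in the others. Rnf34 was at 21.2 CPM in Uba1 OE tumor 2 against 23.4 to 23.8 CPM. Rnf6 was at 54.9 CPM in B16-BL6 sgUba1 tumor 1 against 52.1 to 52.3 CPM.

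The response to IFN-γ differed by the interaction term between sgUba1 and sgNC cells for Rnf26 (-0.52), Rnf126 (-0.35), Rnf10 (-0.33) and Rnf220 (-0.25), and between TAK-243 and untreated cells for Rnf213 (0.32).

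Several genes had differences of opposite sign in 2 settings, with no overlap between groups in either. The share of all genes with this pattern was not counted, so it is not a result about Rnf genes. Of these values only those of Rnf213 and Rnf6 in cultured cells passed the threshold, Rnf6 in wild-type cells, and the difference between settings was not tested. With sgUba1, Rnf152 had a log2 difference of 0.27 in B16-BL6 tumors and -0.24 in cells, Rnf215 -0.24 and 0.28, Rnf41 -0.061 and 0.11, and Rnf8 0.22 and -0.14. With TAK-243, Rnf213 had 0.37 in tumors and -0.85 in cells. With IFN-γ, Rnf146 had 0.14 in sgNC cells and -0.11 in wild-type cells, Rnf168 0.069 and -0.076, and Rnf6 0.061 and -0.12.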

How the results depend on the processing

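Of the 121 called values followed, 0 changed sign under the alternatives run. Medians over the Rnf genes lay near 0 and changed sign in 6 comparisons, ranging from -0.031 to 0.0054 in B16-BL6, -0.038 to 0.023 in Myc-CaP sgUba1 and -0.0091 to 0.025 in TAK-243 tumors, -0.038 to 0.045 for sgUba1 cells with IFN-γ, -0.06 to 0.032 for the TAK-243 interaction and -0.028 to 0.072 between lines. No scaling moved the median of all genes by over 0.1. Counts of Rnf genes called changed as follows, and the cause was not tested. Unless stated, the share of all genes called in the same alternative fit is not given, in this section or above. These counts, those with a replicate block and those with a library left out do not tell a change in Rnf genes from one in the whole fit. With DESeq2, Myc-CaP sgUba1 tumors gave 4, Uba1 OE 1, TAK-243 tumors 2, sgUba1 cells 19 and IFN-γ in sgNC cells 0. Limma-voom gave 0 for Myc-CaP sgUba1 tumors. RLE factors gave 0 for IFN-γ in sgNC cells and 1 for the sgUba1 interaction. With no low-count filter, B16-BL6 tumors gave 1 (Rnf212b, chosen through that group), IFN-γ in sgNC cells 4 and the sgUba1 interaction 7. With only the groups compared in the fit, sgUba1 cells gave 15 and IFN-γ in sgNC cells 0. Without tumors 4 to 7, Myc-CaP sgUba1 gave 0, where 0.00638% of all genes were called.

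Replicate numbers were not used as pairs in the main fit. In no comparison with 3 or more pairs was every correlation of same-numbered samples over 0.1. In TAK-243 tumors the correlations ran from -0.247 to 0.411. With 2 libraries a group, both pairs of a cell comparison give the same value, so the check cannot decide for cells. With a replicate block, Myc-CaP sgUba1 tumors gave 0, the TAK-243 interaction 2 and the line comparison 21. The block gave 30 and 34 for sgUba1 cells, 45 and 45 for TAK-243 cells, 3 and 14 for IFN-γ and 4 for the sgUba1 interaction, and 0 in the other tumor comparisons.

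Leaving out each library gave 0 in B16-BL6, 0 to 3 in Myc-CaP sgUba1, 0 to 1 in OE and 0 to 1 in TAK-243 tumors. In cells it gave 16 to 30 for sgUba1, 24 to 28 with IFN-γ, 39 to 42 for TAK-243, 37 to 41 with IFN-γ, 0 to 11 and 10 to 12 for IFN-γ in sgNC and wild-type cells, 0 to 9 for the sgUba1 interaction, 1 throughout for the TAK-243 interaction, and 33 to 53 between lines. In OE and TAK-243 tumors the calls added were Rnf149 without OE tumor 1, Rnf169 without OE tumor 4 and Rnf213 without TAK-243 tumor 5. Myc-CaP sgUba1 tumors added Rnf157 and Rnf213 without sgUba1 tumor 2, and Rnf157 without sgUba1 tumor 3. Calls were also added for IFN-γ in sgNC cells and for the sgUba1 interaction. Over 121 named values and 1248 repeats, 1086 kept their side of the threshold and 162 lost it. Values near 1 CPM, such as Rnf125, Rnf32, Rnf222 and Rnf135, rest on few counts.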

Other observations

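Some close relatives stood in the same order in most libraries, in TPM, and others did not. Rnf20 and Rnf40, partners in one histone H2B ligase, had medians of 43.4 and 31.1 TPM in cells, with Rnf20 higher in 16 of 16 libraries, and 38.9 and 27.4 TPM in tumors, with Rnf20 higher in 29 of 35. Rnf126 stood above Rnf115 in 16 of 16 cell libraries, at medians of 89.5 and 35.3 TPM, and in 30 of 35 tumors. Rnf5 and Rnf185, both of endoplasmic reticulum degradation, had medians of 31.7 and 19.6 TPM in tumors, with Rnf5 higher in 28 of 35, and 25.1 and 15.8 TPM in cells, with Rnf5 higher in 12 of 16. Rnf19a and Rnf19b were near each other, at 21.1 and 19.3 TPM in cells, with Rnf19a higher in 9 of 16. These values are descriptions over libraries that share groups, and were chosen with no test.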
